A study of Mus musculus with 6 samples.

Results

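The genes described here are 10 sensors and adaptors of microbial recognition: the Toll-like receptors Tlr2, Tlr3, Tlr4, Tlr5 and Tlr9, their adaptor Myd88, the NOD-like receptors Nod1 and Nod2, and the inflammasome receptors Nlrp6 and Nlrp3. They were taken from a named list and found on the array through the RefSeq accession of each probe. All 10 were on the array, with 13 of its 56605 probes, and 9 of the 10 could be tested among 27916 features. The samples were colonic epithelium of mice labelled male, 3 with the genotype miR-31 knockout (KO) and 3 wildtype (WT), with 1 Agilent one-colour array per mouse. Epithelium was separated by flow into TRIzol. The gate, the strain, the age of the mice and how the knockout was made are not given in the sources used here. All KO arrays lay in row 1 of the slide and all WT arrays in row 2, so slide row and genotype cannot be told apart.

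Toll-like receptors sit in the cell surface or endosomal membrane and bind conserved microbial molecules such as lipopeptides, lipopolysaccharide, flagellin and nucleic acids. Most of them signal through Myd88 to NF-kB. NOD-like receptors sit in the cytosol: Nod1 and Nod2 bind fragments of bacterial peptidoglycan and signal through the kinase Ripk2, whereas Nlrp3 and Nlrp6 form inflammasomes that activate caspase-1. In the colon these sensors face a dense microbiota, and they are used by the epithelium as well as by resident immune cells.

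The deleted gene, Mir31, yields a mature microRNA from each arm of its hairpin. Their sequences are shown because their absence is the only difference between the groups that the labels name. Both come from RefSeq (GRCm38.p6, minus strand, chr4:88910614-88910635 for the 5p arm and chr4:88910577-88910599 for the 3p arm), with the seed, bases 2 to 8, in capitals. No seed site was searched for in the sensor genes, since their untranslated regions were not used here.
mmu-miR-31-5p: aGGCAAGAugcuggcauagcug
mmu-miR-31-3p: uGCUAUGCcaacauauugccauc

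The arrays were similar in brightness: 66.6% to 75.6% of probes cleared the software's background limit, and the processed intensity at the 75th percentile was 3005 to 3539. Levels below are log2 intensities relative to that percentile on the same array, so 0 is the 75th percentile. They are compared between arrays. Probes are set against each other only to pick or name a brighter probe, or the largest part of a marker sum. The tissue label was checked against markers. All 10 markers of colonic epithelium were well above background on every array. Their linear signal, in units of the 75th percentile, was summed with marked spots kept, as for all marker sums below. The sum was 106 to 121 on KO arrays and 111 to 123 on WT arrays. Markers of other cells were present too: all 4 pan-leukocyte markers and all 8 T and cytotoxic cell markers on the array were well above background on every array. The same held for all 7 Paneth cell and small intestine markers on the array, so this check does not tell colon from small intestine.

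On 4 of the 6 arrays, sex-linked genes went against the label male. Ddx3y, a Y-linked helicase gene, had levels of -0.23, -0.31 and -8.94 on KO arrays 1 to 3, and -8.73, -9.44 and -9.35 on WT arrays 1 to 3, and was well above background on KO arrays 1 and 2 alone. Uty, Kdm5d and Eif2s3y, the other Y-linked genes looked at, were also far higher on KO arrays 1 and 2 than on the other arrays by each of their probes. Xist, the RNA that coats the inactive X chromosome of females, had levels of -6.28, -6.99 and -0.24 on KO arrays 1 to 3, and 0.43, 0.025 and -0.39 on WT arrays 1 to 3. KO array 3 and all WT arrays thus had Xist and little or no Y-linked signal, and KO arrays 1 and 2 the opposite. No WT array had Ddx3y well above background. A probe of Eif2s3y was well above background on all WT arrays and a probe of Kdm5d on WT array 3, both far below KO arrays 1 and 2. Another Eif2s3y probe, the one tested, read -5.11 on KO array 3 and was well above background there. On WT arrays 1 to 3 that probe read -8.57, -9.38 and -9.17 and was not well above background. Whatever goes with the strong Y-linked signal thus cannot be told apart from genotype on KO arrays 1 and 2. KO array 3 against the WT arrays is the one comparison between genotypes without the strong Y-linked signal, and it rests on 1 KO mouse. It is given below as a fit with Y-linked signal, taken as Ddx3y well above background, as a block. These genes and this fit were chosen after their values were seen.

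None of the 9 tested sensors passed the test at an adjusted p under 0.05 (limma, Benjamini-Hochberg over all features), where 0.208% of all features did. At an unadjusted p under 0.05 there was 1, Nod2, against 10.7% of all features (3.18% higher in KO). The arrays of the 2 genotypes did not overlap for Nod2, higher in KO, and Nlrp3, lower in KO, against 18% of all features (5.56% higher and 12.5% lower). Of the 9 log2 changes, 4 lay above 0 and 5 below, with a median of -0.0043. Over all features 61.5% lay below 0, and the median was -0.061. On simulated arrays of this size, 2-fold changes were called in 24% of cases and 1.5-fold changes in 2%, so a change of that size mostly went uncalled there. The simulation changed 50 features at each fold and drew the noise of each feature by itself. It held no effect shared by the features of an array, so these rates may not hold for the real arrays.

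**Figure D1:**
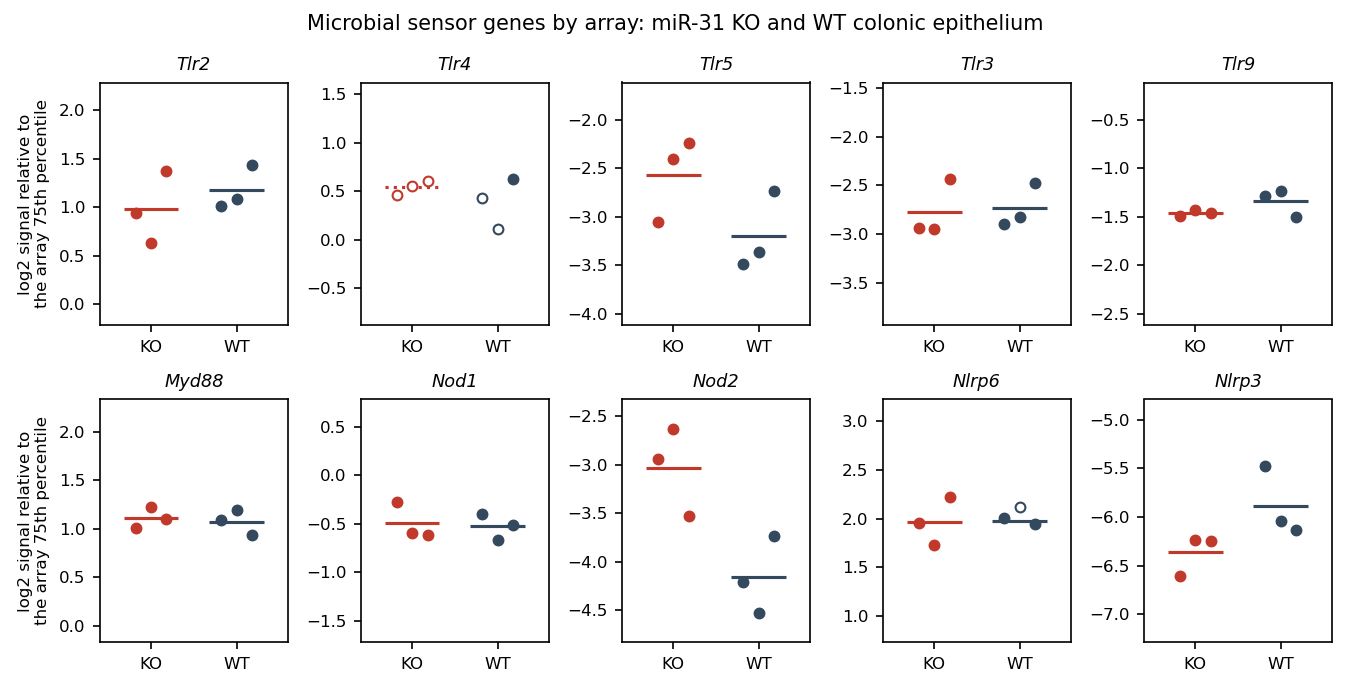
Level of each of the 10 sensor genes on every array (y axis, log2 signal relative to the 75th percentile of the array), KO left and WT right. Points are arrays, lines are group means over unmarked spots (dotted over marked spots where no other exist), open circles are spots marked as outliers by the extraction software, and every panel spans the same number of log2 units. The Nod2 and Nlrp3 points of the 2 genotypes do not overlap, and those of the other genes do.

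Nod2, the cytosolic receptor for muramyl dipeptide and a gene long tied to intestinal inflammation, had the largest difference of the group. Its level was -2.94, -2.63 and -3.53 on KO arrays 1 to 3, and -4.21, -4.53 and -3.73 on WT arrays 1 to 3. All 3 KO arrays lay above all 3 WT arrays, and the nearest pair was KO array 3 and WT array 3. The means were -3.04 ± 0.46 in KO and -4.16 ± 0.40 in WT (SD, n = 3 each). The log2 change, KO minus WT, was 1.12 ± 0.29 (SE, n = 3 and 3), a fold of 2.17 with a 95% interval of 1.36 to 3.47. It did not pass (limma, unadjusted p = 0.00575, adjusted p = 0.266), and 602 features had a smaller p. In these bulk samples, more cells that express a gene and more RNA per cell cannot be told apart.

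A second, dimmer Nod2 probe had levels of -5.57, -6.02 and -6.40 on KO arrays 1 to 3, and -6.73, -6.97 and -6.55 on WT arrays 1 to 3. These groups did not overlap either, and the highest WT array was again array 3. The probe was well above background on 3 KO and 2 WT arrays. Its log2 change was 0.75 ± 0.24 (SE, n = 3 and 3, limma over all probes, unadjusted p = 0.0185). The 2 probes read the same RNA and are not independent samples of the mice.

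**Figure D2:**
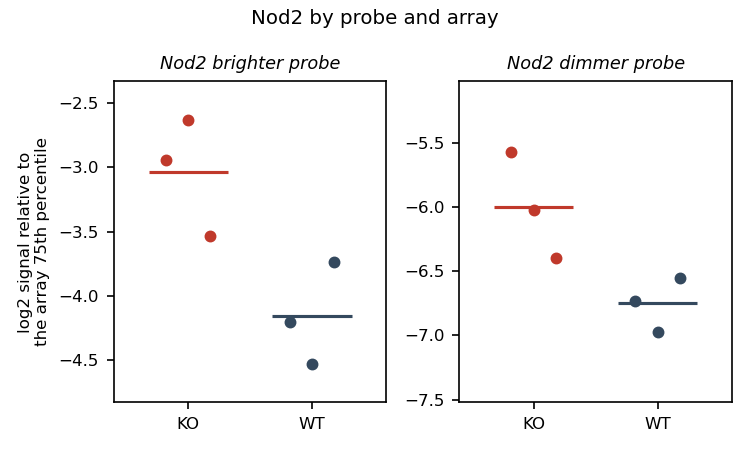
Level of Nod2 on every array by its brighter and its dimmer probe (y axis, log2 signal relative to the 75th percentile of the array), KO left and WT right. Points are arrays and lines are group means. By both probes each KO array lies above each WT array, and the lowest KO array lies close to the highest WT array.

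The estimate of the Nod2 difference varied with the arrays compared. KO arrays 1 and 2 and WT arrays 1 and 2 came from animals with close title numbers and shared slide columns 1 and 2, whereas array 3 of each genotype came from an animal with a later number and lay in a column of its own. KO minus WT was 1.26 in slide column 1 and 1.90 in column 2. Between the mice of close number it was 1.58, and between KO array 3 and WT array 3 it was 0.20. With 1 array per genotype in the later animals, whether the 2 sizes differ was not tested. With slide column as a block, which takes array 3 of both genotypes out of the comparison, the log2 change was 1.58 ± 0.22 (SE, limma, adjusted p = 0.0583). That value rests on the KO arrays with Y-linked signal. With Y-linked signal as a block, which sets KO array 3 against the WT arrays, the log2 change was 0.62 ± 0.32 (SE, limma, unadjusted p = 0.0981, adjusted p = 0.671).

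Nod2 is also expressed by monocytes and macrophages, so the markers of those cells are given beside it. Of 11 markers 7 were well above background on all arrays and Cd163 on none, and their summed signal was 28.4 to 33.0 on KO arrays and 28.6 to 31.6 on WT arrays. Most of that sum was Itgam, an integrin gene, and without it the sum was 10.3 to 15.4 on KO arrays and 11.2 to 12.9 on WT arrays. C1qa, a complement component of tissue macrophages, had a log2 change of 0.78 ± 0.30, while its partners C1qb and C1qc had changes of -0.53 and -1.15, with every KO array below every WT array. C1qc was well above background on only 1 KO array, against 3 WT arrays, so its change rests on KO levels near the background. Mrc1, the mannose receptor gene of macrophages, had a change of -0.68 ± 0.30. These 4 and Itgam were named after their values were seen, and 0 of the 7 tested markers passed. Pan-leukocyte markers summed to 1.32 to 2.18 on KO arrays and 1.23 to 1.92 on WT arrays, and T and cytotoxic cell markers to 3.82 to 6.50 on KO arrays and 3.50 to 5.44 on WT arrays. The 7 markers of B and plasma cells summed to 0.296 to 0.364 on KO arrays and 0.234 to 0.288 on WT arrays. Of these, 1 was apart between the genotypes, Jchain, the joining chain gene of secreted antibodies, with a log2 change of 1.20 ± 0.24 (SE, n = 3 and 3, adjusted p = 0.191). Without Jchain the sums overlapped, at 0.223 to 0.255 on KO arrays and 0.183 to 0.258 on WT arrays. The sums for Paneth cell and small intestine markers were 30.2 to 44.2 on KO arrays and 34.6 to 39.0 on WT arrays. That list mixes Paneth cell genes with other genes of the small intestine. Its Paneth cell genes Lyz1 and Defa24, named after their values were seen, had log2 changes of -0.19 ± 0.52 and 0.10 ± 0.54 (SE, n = 3 and 3). The part of any of these cell types in the Nod2 difference was not tested.

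Some genes of mast cells, from a list added after their values were seen, were higher in KO, and others were not. Of 11 genes 10 were on the array, 8 of them well above background on all arrays. Of 8 tested, 6 had changes above 0, beside 38.5% of all features. Past the threshold were 3, all higher in KO, beside 0.208% of all features in either direction. As the list was added with its values known, these counts are a description. Mcpt4, a mast cell protease gene, had levels of -1.55, -0.93 and -1.19 on KO arrays 1 to 3, and -3.60, -3.83 and -3.31 on WT arrays 1 to 3. Its log2 change was 2.36 ± 0.20 (SE, n = 3 and 3, limma, adjusted p = 0.00893). The related proteases Mcpt2 and Cma2 had changes of 2.10 ± 0.13 (n = 2 and 3, adjusted p = 0.00547) and 2.82 ± 0.19 (n = 3 and 3, adjusted p = 0.00325). Cpa3, the mast cell carboxypeptidase gene, had 2.14 ± 0.28 and did not pass (adjusted p = 0.0519), while Cma1 and Tpsb2 had changes of -0.60 ± 0.31 and -0.25 ± 0.17. Mcpt2, Mcpt4 and Cma2 all lie on chromosome 14, as do Cma1 and Mcpt1. Mcpt1 had a change of 2.46 ± 0.43 (n = 2 and 3, limma, adjusted p = 0.163). Cpa3 lies on chromosome 3 and was well above background on 1 WT array. Fcer1a, on chromosome 1, had a change of 0.69 ± 0.22 without overlap between genotypes (n = 3 and 3, limma, adjusted p = 0.353). The list summed to 3.34 to 3.68 on KO arrays and 1.77 to 2.56 on WT arrays, and without Kit, a gene used by other cells too, to 1.84 to 2.19 on KO arrays and 0.781 to 1.04 on WT arrays. The part of mast cells in the Nod2 difference was not tested.

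Genes alike to Nod2 over the 6 arrays were sought among tested genes with a symbol and no marked array. Gm, Riken, locus and accession names were left out. The closest were Grm2, a glutamate receptor gene, Tanc1, which encodes a scaffold protein, and Cd44, the hyaluronan receptor gene, with Pearson's r of 0.990, 0.987 and 0.987. These values come from 6 points that share 2 genotypes and 1 slide, and they are a description. Cd44 had a log2 change of 0.76 ± 0.17 (adjusted p = 0.238), Grm2 one of 0.25 ± 0.11 and Tanc1 one of 0.21 ± 0.11 (SE, n = 3 and 3, limma).

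Nod1, which binds a peptidoglycan fragment typical of Gram-negative bacteria, showed no such separation. Its levels were -0.28, -0.59 and -0.62 on KO arrays 1 to 3, and -0.40, -0.66 and -0.52 on WT arrays 1 to 3. The groups overlapped. Nod1 had a KO minus WT difference of 0.030 ± 0.15 on the log2 scale (SE, n = 3 and 3), a fold of 1.02 with a 95% interval of 0.804 to 1.30. With Y-linked signal as a block the difference was -0.093 ± 0.21. Pearson's r between Nod1 and Nod2 over the 6 arrays was 0.26.

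Among the surface Toll-like receptors, Tlr5, the flagellin receptor, had the largest difference. Its levels were -3.05, -2.41 and -2.24 on KO arrays 1 to 3, and -3.49, -3.36 and -2.73 on WT arrays 1 to 3. KO arrays 2 and 3 lay above every WT array, and KO array 1 lay below WT array 3. The log2 change was 0.63 ± 0.28 (SE, n = 3 and 3) and did not pass (limma, unadjusted p = 0.0587, adjusted p = 0.486), with a fold of 1.54 and a 95% interval of 0.979 to 2.43. The values within slide columns 1 and 2 were 0.44 and 0.95, and that between arrays 3 was 0.49, all of the same sign. With Y-linked signal as a block the log2 change was 0.95 ± 0.37 (SE, limma, unadjusted p = 0.0415, adjusted p = 0.528).

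Tlr2, which senses bacterial lipopeptides together with Tlr1 or Tlr6, had levels of 0.94, 0.63 and 1.37 on KO arrays 1 to 3, and 1.01, 1.09 and 1.44 on WT arrays 1 to 3. The groups overlapped, with array 3 the highest in each genotype. KO minus WT came to -0.20 ± 0.22 log2 units (SE, n = 3 and 3), a fold of 0.871 with a 95% interval of 0.610 to 1.24. With Y-linked signal as a block the sign turned, to 0.19 ± 0.24.

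Tlr4, the lipopolysaccharide receptor, could not be tested, because too few of its spots were free of outlier marks. Its brighter probe was marked on 5 of the 6 arrays, and its dimmer probe on 3. With the marked spots kept, the brighter probe read 0.47, 0.56 and 0.61 on KO arrays 1 to 3, and 0.43, 0.11 and 0.63 on WT arrays 1 to 3. The KO values lay within the range of the WT values. The log2 change on that basis was 0.15 ± 0.16 (SE, n = 3 and 3, limma, adjusted p = 0.788). The dimmer probe read a change of -0.0047 ± 0.36 on the same basis.

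The endosomal receptors gave small differences. Tlr3, the receptor for double-stranded RNA, was tested by its dimmer probe, with levels of -2.94, -2.94 and -2.44 on KO arrays 1 to 3, and -2.90, -2.82 and -2.47 on WT arrays 1 to 3. As for Tlr2, array 3 was the highest of each genotype, and r between Tlr2 and Tlr3 was 0.90 over the 6 arrays. The log2 change of Tlr3 was -0.043 ± 0.19 (SE, n = 3 and 3). Its brighter probe was marked on all 6 arrays. With the marks ignored that probe ranged from -0.71 to -0.43 on KO arrays and from -1.47 to -0.32 on WT arrays, with a log2 change of 0.26 ± 0.29 (SE), so the sign for Tlr3 depends on the probe. It also turned for the tested probe with Y-linked signal as a block, at 0.29 ± 0.22.

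Tlr9, the receptor for unmethylated CpG DNA, had levels of -1.49, -1.43 and -1.46 on KO arrays 1 to 3, and -1.29, -1.24 and -1.50 on WT arrays 1 to 3. WT array 3 lay below the KO arrays and the other WT arrays above them. For Tlr9, KO minus WT came to -0.12 ± 0.12 log2 units (SE, n = 3 and 3), with a 95% interval of -0.41 to 0.17.

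Myd88, the adaptor that most Toll-like receptors and the receptors of the interleukin 1 family share, had close values on all arrays. Its levels were 1.01, 1.23 and 1.10 on KO arrays 1 to 3, and 1.09, 1.20 and 0.94 on WT arrays 1 to 3. KO minus WT came to 0.035 ± 0.13 log2 units (SE, n = 3 and 3), a fold of 1.02 with a 95% interval of 0.831 to 1.26. A doubling or halving of Myd88 RNA lies outside that interval.

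Nlrp6, which is known for its roles in goblet cells and the control of the colonic microbiota, had levels of 1.96, 1.73 and 2.22 on KO arrays 1 to 3, and 2.001 and 1.95 on WT arrays 1 and 3. The spot of WT array 2 was marked and left out, and it read 2.12. The log2 change was -0.0043 ± 0.18 (SE, n = 3 and 2), a fold of 0.997 with a 95% interval of 0.733 to 1.36, and 0.25 ± 0.21 log2 units with Y-linked signal as a block. The goblet cell markers, all 6 of them well above background on every array, summed to 77.6 to 85.3 on KO arrays and 73.3 to 82.2 on WT arrays.

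Nlrp3, the inflammasome receptor of myeloid cells, lay close to the detection limit. Its levels were -6.61, -6.24 and -6.25 on KO arrays 1 to 3, and -5.48, -6.05 and -6.13 on WT arrays 1 to 3, and KO array 1 was not well above background. All KO arrays lay below all WT arrays, with WT array 1 apart from the rest. The log2 change was -0.48 ± 0.21 (SE, n = 3 and 3) and did not pass (limma, unadjusted p = 0.0546, adjusted p = 0.475). It was -0.28 without WT array 1, -0.36 with Y-linked signal as a block, and -0.14 with normexp background correction. Markers of neutrophils, which also carry Nlrp3, summed to 12.5 to 13.8 on KO arrays and 13.7 to 16.4 on WT arrays, with S100a8 and Retnlg well above background on none. Most of that sum was Csf3r, named after its value was seen, which was lower on every KO array than on every WT array. Its log2 change was -0.19 ± 0.12 (SE, n = 3 and 3, limma, adjusted p = 0.611). No sum without Csf3r was made, so these sums say little about the number of neutrophils. The part of neutrophils in the Nlrp3 difference was not tested.

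**Figure D3:**
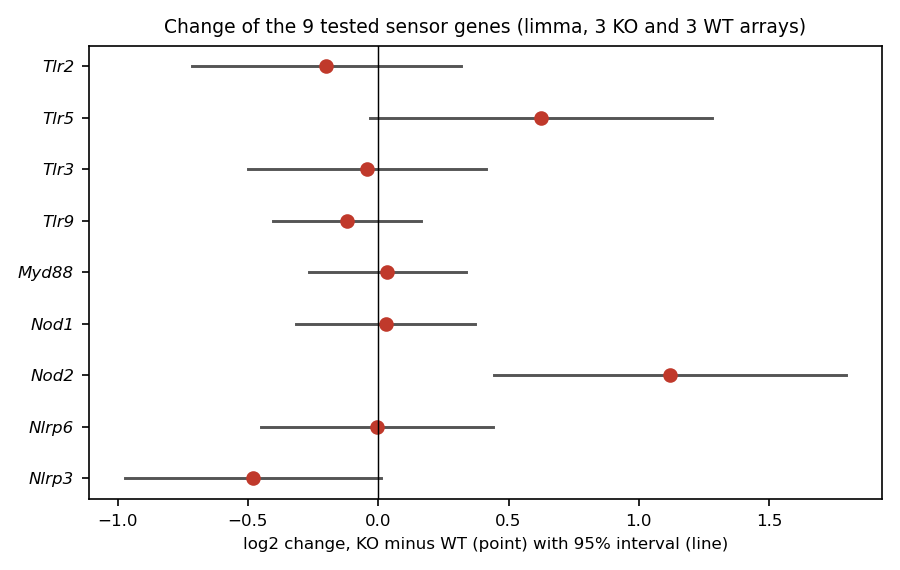
Log2 change, KO minus WT (x axis), of the 9 tested sensor genes. Points are limma estimates and lines 95% intervals from 3 KO and 3 WT arrays (2 WT arrays for Nlrp6). The interval of Nod2, 0.45 to 1.79, is the one that lies clear of 0.

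Related genes were read from 10 lists with 120 genes, of which 87 were tested, and 0 passed at an adjusted p under 0.05. In lists of 4 to 13 tested genes, 0, 1 or 2 had an unadjusted p under 0.05, beside 10.7% of all features. The directions below are to be read beside the 61.5% of all features with a change below 0 and 38.5% above. Of 6 other Toll-like receptors tested, 5 had changes below 0, with a list median of -0.19. Tlr1, the partner of Tlr2, had levels of 0.98 and 1.18 on KO arrays 2 and 3, and 1.55 and 1.61 on WT arrays 2 and 3. The spots of array 1 of both genotypes were marked. Its log2 change was -0.50 ± 0.16 (SE, n = 2 and 2, adjusted p = 0.399). Tlr8 and Tlr13, which sense single-stranded and bacterial ribosomal RNA, had changes of -0.36 ± 0.18 and -0.24 ± 0.13 (SE, n = 3 and 3). Tlr8 was well above background on 2 KO arrays and 3 WT arrays.

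Of 7 co-receptors and chaperones tested, 6 had changes below 0, with a median of -0.13. Cd14, which hands lipopolysaccharide to Tlr4, ranged from 1.61 to 1.63 on KO arrays and from 1.71 to 1.82 on WT arrays. These did not overlap, but the log2 change was -0.13 ± 0.11 (SE, n = 3 and 3). Lbp, the serum lipopolysaccharide-binding protein, had a change of -0.73 ± 0.44, and Ly86, the partner of the receptor homologue Cd180, one of -0.60 ± 0.52. The Ly86 change rested on KO array 1, at -7.65. KO arrays 2 and 3, at -5.57 and -5.83, lay within the WT range of -6.02 to -5.54. Ly86 was well above background on 2 KO arrays.

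Among 9 other NOD-like receptors tested the median was -0.16, and 7 lay below 0. Nlrp10, which lacks the leucine-rich repeats of its family, had levels of -2.52, -2.70 and -2.51 on KO arrays 1 to 3, and -1.68, -1.91 and -2.02 on WT arrays 1 to 3. The groups did not overlap. Its log2 change was -0.71 ± 0.14 (SE, n = 3 and 3, adjusted p = 0.163). Ciita, which drives MHC class II transcription rather than sensing microbes, had a change of 0.99 ± 0.29 (adjusted p = 0.325), and Naip1, a receptor of the flagellin and secretion-system sensing family, one of -0.26 ± 0.13 (n = 2 and 3).

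Of 19 adaptors and kinases of the sensors 13 could be tested, and they had a median of 0.035 and ran from -0.21 to 0.39. Traf3, a ubiquitin ligase of these pathways, had a change of 0.39 ± 0.16 log2 units (SE, n = 2 and 3), Tab2 one of 0.26 ± 0.16 (n = 3 and 2) and Chuk, an NF-kB kinase, one of -0.21 ± 0.15. Ripk2, the kinase below Nod1 and Nod2, did not meet the criteria for testing. The 10 transcription factors tested had a median of 0.018. Atf3, a stress-induced repressor of Toll-like receptor responses, had a change of -0.66 ± 0.25 (adjusted p = 0.413), Irf7 one of 0.56 ± 0.29 and Irf5 one of 0.19 ± 0.12.

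Of 13 negative regulators tested, 10 had changes above 0, with a median of 0.077. Zc3h12a, the ribonuclease that degrades cytokine RNAs, stood out with levels of 0.63, 0.12 and 0.42 on KO arrays 1 to 3, and 1.13, 1.05 and 1.10 on WT arrays 1 to 3. All KO arrays lay below all WT arrays. Its log2 change was -0.70 ± 0.16 (SE, n = 3 and 3, adjusted p = 0.217). Socs1 and Pdlim2 had changes of 0.38 ± 0.21 and 0.33 ± 0.24 (n = 2 and 2 for Pdlim2).

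Inflammasome effectors had a median of -0.053 over 8 tested genes, with changes of 0.0040 ± 0.11 for Casp1, named for its place below Nlrp3 and Nlrp6 after its value was seen, -0.37 ± 0.24 for the ATP-gated channel gene P2rx7, 0.33 ± 0.21 for the DNA sensor Aim2 (n = 2 and 3) and -0.22 ± 0.16 for Casp4. The 5 cytosolic nucleic acid sensors tested had a median of 0.26, and 4 lay above 0. Dhx58 and Ddx58, the RNA helicases of that group, had changes of 0.66 ± 0.38 and 0.45 ± 0.31. The DNA-sensing adaptor Sting1 had -0.30 ± 0.14 without overlap between genotypes. For both helicases WT array 3 was the highest of all 6 arrays.

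For peptidoglycan recognition and transport, 4 of 9 genes were tested, with a median of 0.092. Pglyrp1, a secreted peptidoglycan-binding protein, had levels of 2.98, 2.36 and 2.19 on KO arrays 1 to 3, and 1.97, 1.997 and 1.89 on WT arrays 1 to 3. The groups did not overlap. The log2 change was 0.56 ± 0.21 (SE, n = 3 and 3, adjusted p = 0.418). Slc15a2, a peptide transporter, had a change of -1.30 ± 0.85 that rested on KO array 1, at -4.36, while the other 5 arrays lay between -1.36 and -0.53. Slc15a4, the endolysosomal transporter of Nod ligands, had a change of 0.30 ± 0.17.

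The 12 tested NF-kB target genes had a median of -0.029, with 6 above 0 and 6 below. Cxcl5, a neutrophil-attracting chemokine, had levels of -7.75, -7.96 and -4.35 on KO arrays 1 to 3, and -4.81, -3.61 and -3.79 on WT arrays 1 to 3. KO array 3 was well above background and overlapped the WT arrays. KO arrays 1 and 2, those with Y-linked signal, were not well above background, so their levels are bounds. The log2 change was -2.61 ± 0.94 (SE, n = 3 and 3, adjusted p = 0.394). Nfkbie, an inhibitor of NF-kB, and Nos2, the inducible nitric oxide synthase, had changes of 0.39 ± 0.20 and -0.29 ± 0.19.

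**Figure D4:**
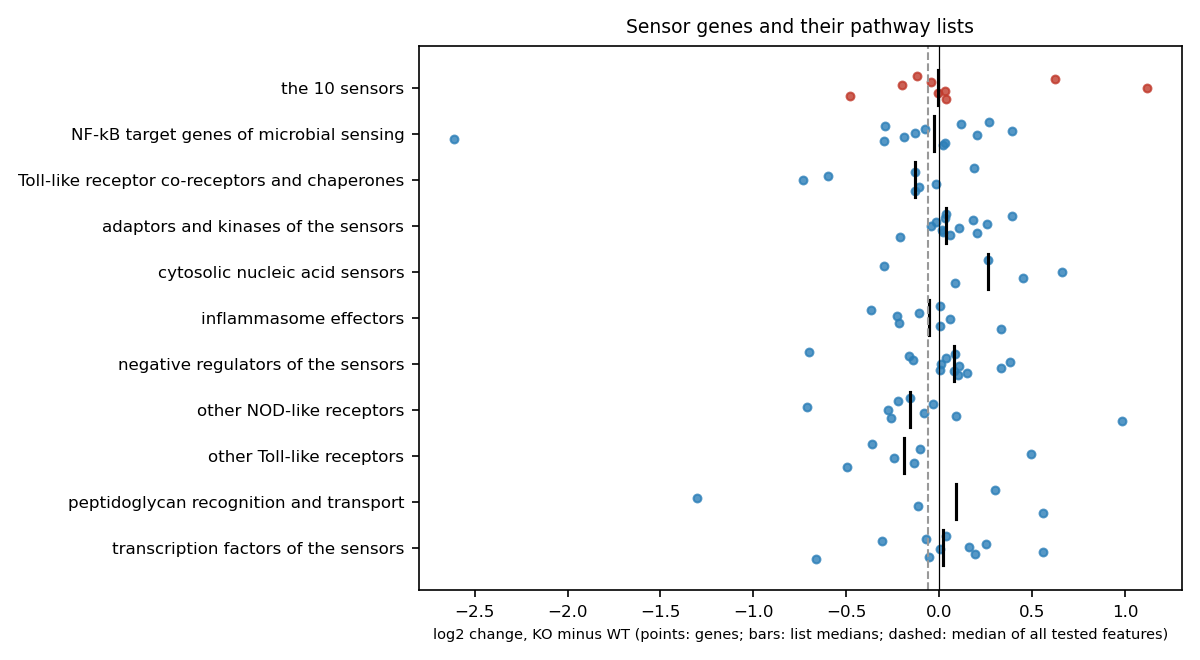
Log2 change, KO minus WT (x axis), of the tested sensor genes (top row) and of the tested genes in 10 related lists. Points are genes, black bars list medians, and the dashed line the median of all tested features at -0.061. The list medians lie between -0.19 and 0.26.

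The differences of Nod2, Tlr5 and Nlrp3 kept their signs under all 17 other processing choices tried, the block for Y-linked signal included. For Nod2 the log2 change lay between 0.62 and 1.58, the unadjusted p between 0.00055 and 0.0981 and the adjusted p between 0.0583 and 0.671. For Tlr5 the change lay between 0.46 and 0.95, with an adjusted p of at least 0.191. For Nlrp3 it lay between -0.66 and -0.14, with an adjusted p of at least 0.294.

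**Figure D5:**
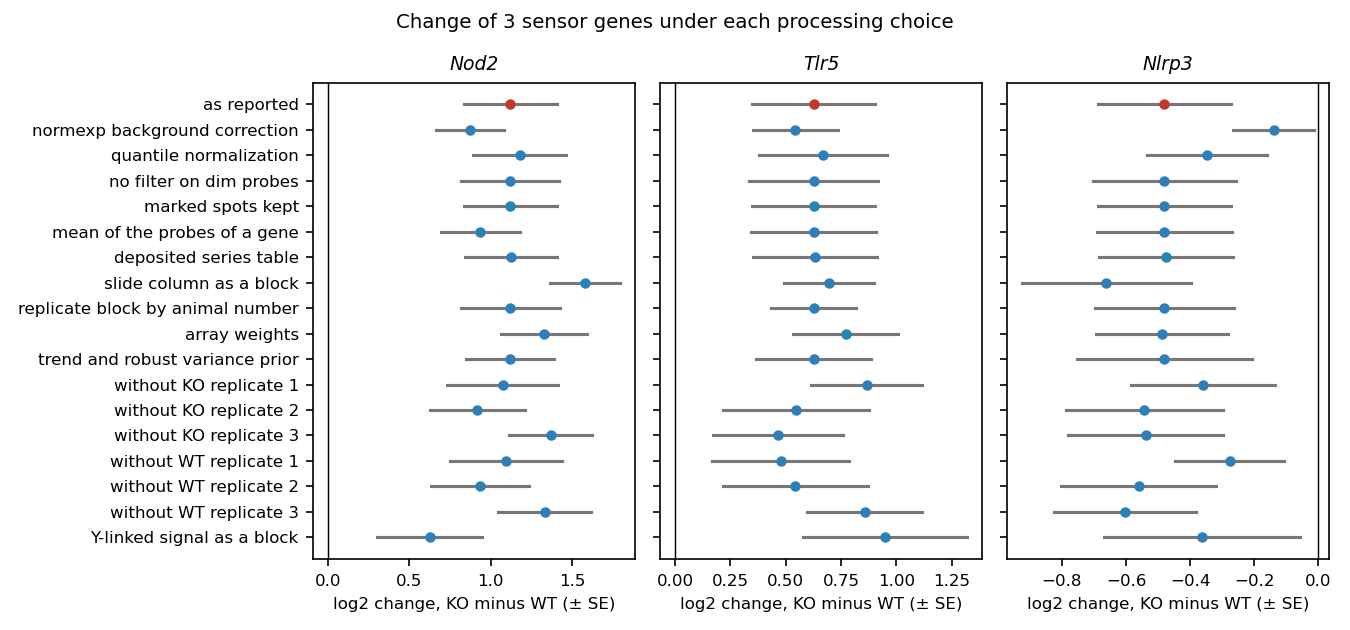
Log2 change, KO minus WT, with its SE (x axis) of Nod2, Tlr5 and Nlrp3 under the reported setting (red) and 17 alternatives (blue), including those with 1 array left out. Every point keeps its sign, and Nlrp3 comes closest to 0 with normexp background correction.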

How the data were processed

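Spot intensities were read from the deposited scanner files, written by Agilent Feature Extraction 11.5.1.1 with an mm9 array design per the file headers. The submitters' processing notes name version 10.7 instead. The processed intensity that the authors deposited has the background subtracted and no normalization between arrays. A deposited series table matched it: 99.7% of the entries agreed to 0.01 log2 units, and the column medians of 230 to 262 in KO and 232 to 249 in WT showed a linear scale without centring.

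The 75th percentile of the 59305 non-control spots of an array was subtracted from the log2 processed intensity. Spots marked as outliers were left out unless stated, and the spots of a probe were averaged. The marker sums, and the levels of the sex-linked and mast cell genes, kept marked spots. RefSeq (GRCm38.p6) gave symbols for 33767 of 56605 probes. Probes entered the test with at least 3 arrays well above background and at least 2 unmarked arrays per genotype, and the brightest such probe stood for a gene. KO was compared with WT in limma 3.58.1 (R 4.3.3, lmFit and eBayes, two-sided), with Benjamini-Hochberg adjustment over 27916 features and a threshold of 0.05. The procedure was tested on simulated data. The number of arrays limits the precision.

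All 10 sensors were named, and of each related list the genes past the threshold and the 3 with the smallest unadjusted p. The genes most alike to the sensor with the smallest p, and to the one with the widest range, were also named, and Nod2 was both. The sensors and lists were chosen with earlier results of these data known, and the sex-linked and mast cell genes after their values were seen. Alternatives are given in the closing section. The scanner files hold no mean spot signal, so normexp (offset 50) used the median signal.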

Additional observations from a re-analysis of the deposited data

How the results depend on the processing

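The number of sensors called was 0 under the reported setting and all 17 alternatives, of which 1, Y-linked signal as a block, was chosen after seeing the data. The number at an unadjusted p under 0.05 was between 1 and 3. The count of all features called, 58, was 100 with normexp, 35 without the filter on dim probes, 216 with slide column as a block, 101 with array weights, 106 with a trended robust variance prior, and 22, without WT array 1, to 116, without KO array 3, with 1 array left out. The cause of these shifts was not tested. The sensors' median log2 change ranged from -0.12, without KO array 3, to 0.043, without KO array 2, with 1 array left out. It was 0.19 with Y-linked signal as a block, a fit in which 49 features were called and which turned the signs of Tlr2 (0.19), Tlr3 (0.29), Nod1 (-0.093) and Nlrp6 (0.25). Signs turned under other alternatives for 4 sensors. Tlr3 was at 0.26 with the marked spots kept and at 0.26 in the deposited series table, both by its other probe, and between -0.21 and 0.087 with 1 array left out. Nod1 ranged from -0.080 to 0.094 with 1 array left out. Myd88 was at -0.027 with slide column as a block and ranged from -0.033 to 0.097 with 1 array left out. Nlrp6 was at 0.0096 with normexp, 0.0092 with quantile normalization and 0.028 with the animal number block, and ranged from -0.13 to 0.12 with 1 array left out. Of the related genes, 1 was called, Cxcl5, in the fits with slide column as a block and without KO array 3, both of which rest on KO arrays 1 and 2, where it was not well above background. The titles give no shared replicate numbers. Animals were grouped by the start of their title number, without a label that makes them pairs. Their deviations from the group means correlated at -0.013 to 0.13 within a number group. With this replicate block 62 features and 0 sensors were called, the sensors' median was 0.028, and Nod2 had an adjusted p of 0.262. Dim probes, Nlrp3 and the second Nod2 probe among them, lie near the detection limit.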
